A study of Mus musculus with 21 samples.

Results

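Natural killer (NK) receptor genes were followed in cultured mouse CD8 T cells: Klra7, Klra3, Klrc1, Klrc2, Klrd1, Klrk1, Klrb1c and Klrg1. They were chosen by name, and all 8 had a row in the deposited table of 13202 genes and passed the filter on low values that left 12630 genes. RNA was sequenced from 21 libraries in 7 groups with n = 3 each. All cells came from spleens and inguinal nodes, were purified by negative selection, activated for 48 h, kept in interleukin 2 (IL-2) and harvested on day 8. In the NAC chronic group, C57BL/6 cells were restimulated on plate-bound anti-CD3 every 48 h with N-acetylcysteine (NAC, an antioxidant that carries a thiol) at 10 mM once the initial stimulation had ended. In the vehicle chronic group, C57BL/6 cells had the same anti-CD3 schedule with vehicle, and in the vehicle acute group they had vehicle and no restimulation. The OT-I chronic group held OT-I TCR transgenic cells, whose T cell receptor (TCR) recognises the ovalbumin peptide SIINFEKL, co-cultured with interferon-γ-treated B16-F10 melanoma cells and given the peptide every 48 h, and the OT-I acute group had the melanoma cells without further peptide. The polyclonal chronic group was C57BL/6 cells restimulated with anti-CD3 and the polyclonal acute group C57BL/6 cells without restimulation, both with no treatment named.

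Most of these genes lie in the NK gene complex on mouse chromosome 6 and encode C-type lectin-like receptors. Inhibitory members carry a motif in the cytoplasmic tail that recruits phosphatases, and activating members lack it and signal through small adaptor proteins. In T cells such receptors are known chiefly from antigen-experienced CD8 cells, in which they raise or lower the response to the T cell receptor.

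Expression was measured as RPKM, read counts normalised for the length of the gene and the depth of the library. Changes are log2 changes of RPKM + 1 with the standard error (SE), which understate the change of genes below a few RPKM. Adjusted p values come from limma over all genes tested, and a change was called at adjusted p under 0.05. The labels do not say that the libraries of a group came from separate cultures or animals, so p-values here reflect the spread among these libraries, which could be technical. Each library held 5347355 to 25218890 reads in listed genes. Klrd1 rested on 210 to 11656 reads per library, and the lowest members, Klrg1, Klra3 and Klrc2, on as few as 9, 11 and 15.

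The libraries were checked against their CD8 T cell label. The coreceptor gene Cd8a was at 138 ± 2.42 RPKM in NAC chronic, 145 ± 1.37 in vehicle chronic, 87.1 ± 1.76 in vehicle acute, 98.3 ± 2.97 in OT-I chronic and 106 ± 3.44 in OT-I acute libraries (SD, n = 3 each). Polyclonal chronic libraries went against the label, with Cd8a at 8.48 ± 0.165 RPKM, against 101 ± 0.556 RPKM in polyclonal acute libraries. Their Cd4 was at 312 ± 8.04 RPKM, against 67.5 ± 2.99 RPKM. Among 6 B cell markers the summed level was 203 to 225 RPKM in polyclonal chronic and 3.36 to 13.7 RPKM in polyclonal acute libraries. Since this holds for every polyclonal chronic library, no polyclonal result can be given without them. OT-I libraries held melanoma RNA as well, with the pigment gene Tyrp1 at 1244 ± 6.97 RPKM in OT-I chronic and 2281 ± 92 RPKM in OT-I acute libraries. Finally, 3 libraries stood apart by raised low genes: polyclonal acute 2, polyclonal chronic 2 and OT-I acute 3. Without these 3 libraries no member changed direction in any of the 5 comparisons of groups, and the calls that changed are named with their genes.

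Klra7 and Klra3 encode Ly49G and Ly49C, inhibitory receptors of the Ly49 family that bind class I major histocompatibility molecules. Both were highest in vehicle chronic cells. Klra7 had 32.7, 36.1 and 31.6 RPKM in the NAC chronic libraries, 151, 154 and 153 RPKM in the vehicle chronic libraries, and 16.7, 19.0 and 19.0 RPKM in the vehicle acute libraries. The 3 groups did not overlap, and the vehicle chronic mean was 8.37 times the vehicle acute mean. Its log2 change was 3.00 in vehicle chronic against vehicle acute cells (SE 0.0935, adjusted p = 2.56e-16) and -2.16 in NAC chronic against vehicle chronic cells (SE 0.0935, adjusted p = 8.84e-14). NAC chronic cells stayed above vehicle acute cells, by a log2 change of 0.84 (SE 0.0935, adjusted p = 1.09e-07). These 3 comparisons share libraries, so they are not independent of each other.

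In OT-I cells Klra7 was low but clearly separated by restimulation. It had 10.2, 8.01 and 10.4 RPKM in OT-I chronic and 1.91, 2.32 and 1.79 RPKM in OT-I acute libraries (log2 change 1.81, SE 0.0935, adjusted p = 3.17e-12). In polyclonal cells the groups lay side by side, with 19.5, 22.9 and 19.9 RPKM in chronic and 15.6, 18.9 and 18.9 RPKM in acute libraries. That difference, a log2 change of 0.21, did not pass (SE 0.0935, adjusted p = 0.0559), but it did under 7 of 29 alternatives, with adjusted p between 0.0209 and 0.267 over all of them. The 7 were the rescaled libraries (log2 change 0.25) and the fits without polyclonal acute library 2, polyclonal acute library 3, polyclonal chronic library 1, OT-I acute library 2, OT-I acute library 3 or OT-I chronic library 2 (0.21 to 0.25). Ordered by mean level, the groups ran from vehicle chronic (152 RPKM) through NAC chronic, polyclonal chronic, vehicle acute, polyclonal acute and OT-I chronic to OT-I acute (2.00 RPKM). Of these neighbours, vehicle acute and polyclonal acute overlapped.

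Klra3 was the rarer transcript, and it followed the same order at the top. It had 10.5, 10.8 and 9.32 RPKM in NAC chronic, 15.6, 17.1 and 15 RPKM in vehicle chronic and 3.68, 4.37 and 4.52 RPKM in vehicle acute libraries. The 3 groups were apart from one another. Klra3 rose in vehicle chronic against vehicle acute cells (log2 change 1.70, SE 0.126, adjusted p = 2.72e-10) and was lower in NAC chronic than in vehicle chronic cells (log2 change -0.59, SE 0.126, adjusted p = 0.000379). Against vehicle acute cells it was higher in NAC chronic cells by a log2 change of 1.11 (SE 0.126, adjusted p = 1.42e-07).

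OT-I chronic libraries held 2.51, 1.92 and 2.24 RPKM of Klra3 and OT-I acute libraries 0.375, 0.829 and 0.633 RPKM (log2 change 1.00, SE 0.126, adjusted p = 1.04e-06). The acute libraries had only 11 to 21 reads, and the log2 change was 1.94 when recovered reads were tested with limma's voom. Polyclonal chronic libraries had 1.47, 2.24 and 1.5 RPKM and polyclonal acute libraries 2.95, 2.12 and 2.20 RPKM. These overlapped, and the lower level in polyclonal chronic cells (log2 change -0.33, SE 0.126, adjusted p = 0.0289) was not called without polyclonal acute library 1 (adjusted p = 0.149), polyclonal chronic library 1 (adjusted p = 0.121) or polyclonal chronic library 3 (adjusted p = 0.112). It was not called with voom (log2 change -0.63, adjusted p = 0.143) or with the compared groups alone (adjusted p = 0.168) either, and was -0.52 without the 3 libraries that stood apart (adjusted p = 0.0017).

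**Figure D1:**
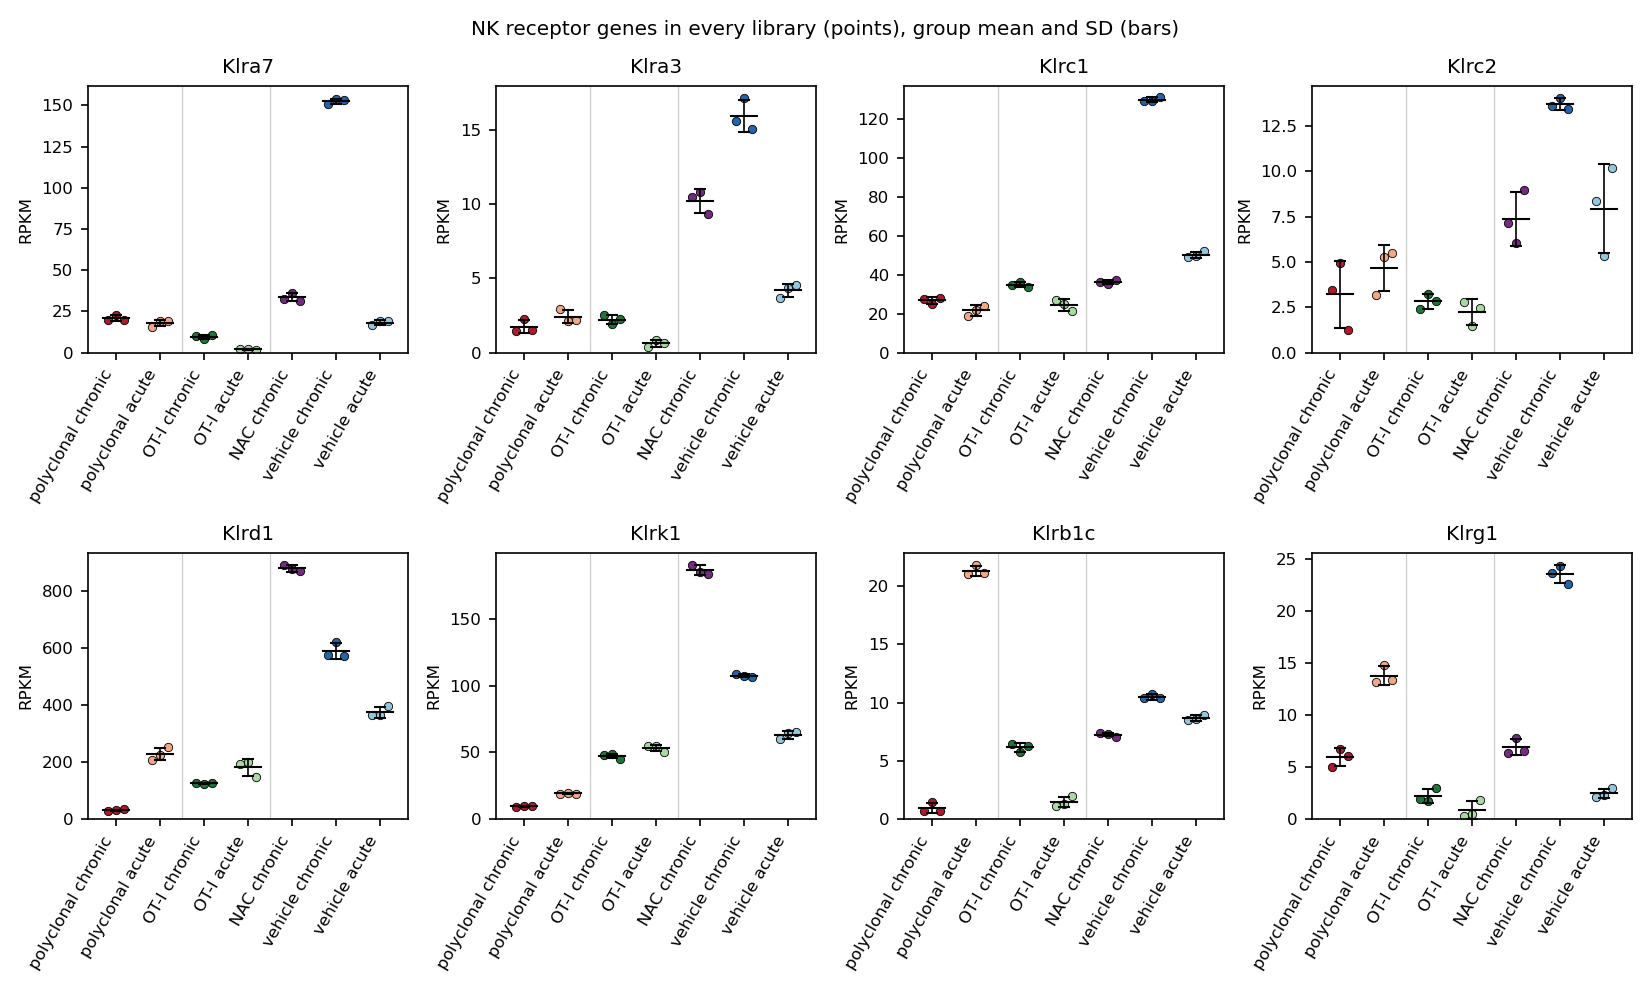
RPKM of the 8 NK receptor genes in every library (points), by group, with group mean and SD (bars, n = 3). Vehicle chronic libraries hold the highest Klra7 (151 to 154 RPKM) and Klrc1 (129 to 131 RPKM), NAC chronic libraries the highest Klrd1 (871 to 894 RPKM) and Klrk1 (184 to 191 RPKM), and polyclonal acute libraries the highest Klrb1c (21.1 to 21.8 RPKM).

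Ly49 genes are near-copies of each other, which limits how far reads can be assigned to one of them. In GENCODE transcripts of GRCm38 the coding sequences of Klra7 and Klra3 were 80.1% identical. Klra7 was closest to Klra1 among the Klra genes in the table (88.0%), and Klra3 to Klra9 (95.9%). Of all 50-base windows of the transcript, 14.7% of those of Klra7 and 21.5% of those of Klra3 also occur in other genes. Neither the read length nor the counting of ambiguous reads is stated. The RPKM of the 6 Klra genes with a row (Klra1, Klra2, Klra3, Klra5, Klra7 and Klra9) was therefore also summed. The sum eases but does not remove the problem: each gene is scaled by its own length, from 1152 bases for Klra5 to 1886 bases for Klra2, and the windows of Klra7 recur in a pseudogene, Klra13-ps, outside the sum. It was 46.4 to 53.3 RPKM in NAC chronic, 199 to 204 RPKM in vehicle chronic and 32.8 to 35.9 RPKM in vehicle acute libraries. It rose in vehicle chronic against vehicle acute cells (log2 change 2.51, limma, adjusted p = 4.05e-15) and was lower in NAC chronic than in vehicle chronic cells (log2 change -2.00, adjusted p = 2.54e-13). In OT-I cells it rose too, by a log2 change of 1.86 (adjusted p = 1.79e-12), and in polyclonal cells the change was -0.01 (adjusted p = 0.935). Klra7 supplied 67.5% ± 0.764 of the sum in NAC chronic, 75.9% ± 0.440 in vehicle chronic and 52.8% ± 1.95 in vehicle acute libraries (SD, n = 3 each). Among the other Klra genes, Klra2 was at 0.375 ± 0.183 RPKM in NAC chronic, 8.39 ± 1.21 RPKM in vehicle chronic and 0.279 ± 0.153 RPKM in vehicle acute libraries.

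Because Klra7 and Klra3 had a like pattern over the libraries, at different levels (Pearson r of 0.90 on log2(RPKM + 1), n = 21, a description over libraries that share groups), their upstream sequences are shown side by side. They are the 250 bases before the gene start in RefSeq (GRCm38.p6, minus strand), at chr6:130233323-130233572 for Klra7 and chr6:130337627-130337876 for Klra3. Capitals mark matches to GGAAAA, the core of the NFAT motif, on either strand.
Klra7: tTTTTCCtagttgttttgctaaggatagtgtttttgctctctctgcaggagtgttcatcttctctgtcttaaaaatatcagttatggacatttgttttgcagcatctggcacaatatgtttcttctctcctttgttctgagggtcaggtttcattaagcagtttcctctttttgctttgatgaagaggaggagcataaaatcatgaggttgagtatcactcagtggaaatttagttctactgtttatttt
Klra3: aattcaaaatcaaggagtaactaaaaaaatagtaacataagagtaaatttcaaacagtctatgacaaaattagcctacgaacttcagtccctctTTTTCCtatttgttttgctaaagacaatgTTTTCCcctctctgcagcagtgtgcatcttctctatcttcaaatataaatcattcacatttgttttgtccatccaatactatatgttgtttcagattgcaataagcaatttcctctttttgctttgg
NFAT factors are switched on by calcium after TCR engagement. The 2 windows were 82.8% identical over 157 aligned bases. Klra7 has another annotated start, and the window more like that of Klra3 was chosen for print. The window of the other start was 55.1% identical to that of Klra3 over 236 aligned bases and had no NFAT match. The match of Klra7 lay 249 bases before the start and those of Klra3 at 156 and 127 bases. At least 1 match occurs in 20.4% of 32544 promoters of this length. Among the other members, the windows of Klrc2 held an NFAT match as well, 187 or 227 bases before the annotated start. The T-box motif GGTGTGA (3.33% of promoters), the RUNX motif TGTGGT (14.0%) and the AP-1 motif TGAGTCA (4.46%), searched on both strands, had no match in either window.

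Klrd1 encodes CD94, which pairs with a protein of the Klrc family. With NKG2A (Klrc1) it forms an inhibitory receptor and with NKG2C (Klrc2) an activating one, and both pairs bind the non-classical class I molecule Qa-1. The subunits did not move together. Under NAC, CD94 RNA was higher and NKG2A RNA lower than in vehicle chronic cells.

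Klrd1 was by level the leading NK receptor gene of the set in every group. It had 894, 880 and 871 RPKM in NAC chronic, 578, 621 and 572 RPKM in vehicle chronic and 364, 365 and 398 RPKM in vehicle acute libraries, and the 3 groups were apart. Its log2 change was 0.65 in vehicle chronic against vehicle acute cells (SE 0.0858, adjusted p = 1.48e-06), and 0.58 in NAC chronic against vehicle chronic cells (SE 0.0858, adjusted p = 7.42e-06). In the OT-I and polyclonal experiments restimulated cells had less of it. OT-I chronic libraries held 126, 124 and 126 RPKM and OT-I acute libraries 193, 202 and 149 RPKM (log2 change -0.52, SE 0.0858, adjusted p = 3.3e-05). Polyclonal chronic libraries held 29.9, 31.3 and 33.6 RPKM and polyclonal acute libraries 209, 227 and 252 RPKM, a mean 7.25 times as high (log2 change -2.82, SE 0.0858, adjusted p = 1.52e-16). Polyclonal chronic was thus the lowest group and NAC chronic the highest, 27.9-fold apart, with every neighbour in the order separated. Summed CD8 T cell markers were 862 to 996 RPKM in polyclonal chronic and 1477 to 1641 RPKM in polyclonal acute libraries. Fewer cells of a type and less RNA per cell cannot be told apart in such bulk samples, and the part of the changed markers in this result was not tested.

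Klrc1 was highest in vehicle chronic cells. It had 36.1, 35.2 and 37.2 RPKM in NAC chronic, 129, 129 and 131 RPKM in vehicle chronic and 49.0, 49.6 and 52.1 RPKM in vehicle acute libraries. NAC chronic libraries thus lay below both other groups. Klrc1 rose in vehicle chronic against vehicle acute cells (log2 change 1.35, SE 0.0777, adjusted p = 4.97e-12). It was lower in NAC chronic than in vehicle chronic cells (log2 change -1.82, SE 0.0777, adjusted p = 7.29e-14) and than in vehicle acute cells (log2 change -0.46, SE 0.0777, adjusted p = 2.55e-05). The same gene rose with restimulation in the other experiments as well, by less. OT-I chronic libraries had 34.7, 36.1 and 33.7 RPKM and OT-I acute libraries 27.1, 24.7 and 21.1 RPKM (log2 change 0.51, SE 0.0777, adjusted p = 1.37e-05). Polyclonal chronic libraries had 27.7, 24.9 and 27.9 RPKM and polyclonal acute libraries 18.7, 22.1 and 24.0 RPKM (log2 change 0.30, SE 0.0777, adjusted p = 0.00184). Klrc1 was the 1 member that rose in all 3 comparisons of chronic with acute cells. Between its highest and lowest group, vehicle chronic and polyclonal acute, the means differed 6.01-fold, the narrowest range of the 8 genes.

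Klrc2 was low and varied more between libraries. It had 7.13, 6.03 and 8.97 RPKM in NAC chronic, 13.6, 14.1 and 13.4 RPKM in vehicle chronic and 8.36, 5.31 and 10.2 RPKM in vehicle acute libraries. Vehicle chronic libraries lay above the others, which overlapped. The log2 change was 0.76 in vehicle chronic against vehicle acute cells (SE 0.269, adjusted p = 0.0204), but was not called without vehicle acute library 2 (0.52, adjusted p = 0.131) or vehicle chronic library 2 (0.74, adjusted p = 0.0510). It was -0.83 in NAC chronic against vehicle chronic cells (SE 0.269, adjusted p = 0.0117), and -0.71 without NAC chronic library 2 (adjusted p = 0.0540). NAC chronic and vehicle acute cells were not separated (log2 change -0.07, SE 0.269, adjusted p = 0.868). OT-I chronic libraries had 2.41, 3.25 and 2.84 RPKM and OT-I acute libraries 2.81, 1.47 and 2.44 RPKM, which overlapped (log2 change 0.26, SE 0.269, adjusted p = 0.418). Polyclonal chronic libraries had 3.44, 4.96 and 1.27 RPKM and polyclonal acute libraries 3.19, 5.26 and 5.52 RPKM, which overlapped too (log2 change -0.50, SE 0.269, adjusted p = 0.109). Single libraries decided that value: it was -0.71 without polyclonal acute library 1 (adjusted p = 0.0399), -0.81 without polyclonal chronic library 2 (adjusted p = 0.0113) and -0.72 without the 3 libraries that stood apart (adjusted p = 0.0336).

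Klrc1, Klrc2 and Klrc3 are close copies, with coding sequences 83.1% identical between Klrc1 and Klrc2 and 94.9% between Klrc2 and Klrc3. Of the 50-base windows of their transcripts, 40.3% of those of Klrc1 and 38.9% of those of Klrc2 recur in other genes, so the values of both are uncertain. Klrd1, Klrk1 and Klrg1 share no such window (0%). Summed over Klrc1, Klrc2 and Klrc3, RPKM was 44.6 to 50.5 in NAC chronic, 150 to 154 in vehicle chronic and 57.1 to 66.3 in vehicle acute libraries. The sum moved as Klrc1 did in these cells, with a log2 change of 1.29 in vehicle chronic against vehicle acute cells (limma, adjusted p = 3.94e-11) and -1.66 in NAC chronic against vehicle chronic cells (adjusted p = 1.01e-12). Its log2 change was 0.46 in OT-I cells (adjusted p = 9.23e-05) and 0.20 in polyclonal cells (adjusted p = 0.0398). It was not called without polyclonal acute library 1 (0.10, adjusted p = 0.282), polyclonal chronic library 1 (0.20, adjusted p = 0.0850) polyclonal chronic library 2 (0.18, adjusted p = 0.106) or the 3 libraries that stood apart (0.20, adjusted p = 0.0639), nor with the compared groups alone (adjusted p = 0.0828). With voom it was 0.31 (adjusted p = 0.00729).

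CD94 RNA relative to that of its partners separated the groups within each experiment. The RPKM of Klrd1 over the summed RPKM of the 3 Klrc genes was 18.7 ± 1.31 in NAC chronic, 3.9 ± 0.204 in vehicle chronic and 6.13 ± 0.228 in vehicle acute libraries (SD, n = 3 each). In OT-I cells the ratio was 3.20 ± 0.144 in chronic and 6.42 ± 0.639 in acute libraries. Polyclonal chronic libraries had a ratio of 0.993 ± 0.0967, the lowest of all, and polyclonal acute libraries 8.31 ± 0.481. In each of the 3 experiments the ratio was lower in chronic than in acute libraries, with no overlap, and with NAC it was higher than in both vehicle groups. The ratio is given as a description, with no test.

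**Figure D2:**
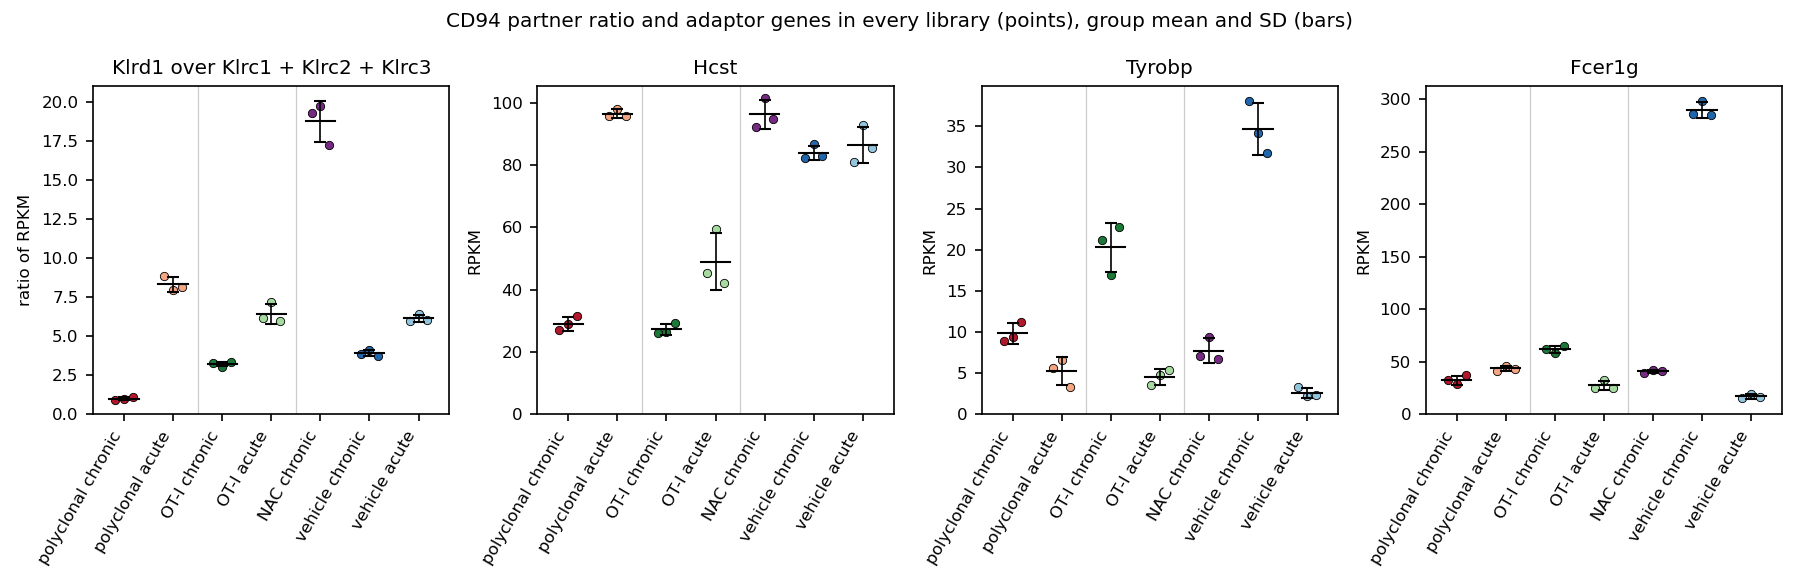
RPKM of Klrd1 divided by the summed RPKM of Klrc1, Klrc2 and Klrc3, and RPKM of the adaptor genes Hcst, Tyrobp and Fcer1g, in every library (points) with group mean and SD (bars, n = 3). The ratio is 17.3 to 19.7 in NAC chronic libraries and at most 8.86 elsewhere, and Fcer1g reaches 285 to 299 RPKM in vehicle chronic libraries.

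Klrk1 encodes NKG2D, an activating receptor that CD8 T cells use as a costimulator and that binds stress-induced ligands such as RAE-1, H60 and MULT1 in mice. Its RNA was highest in NAC chronic cells. It had 191, 185 and 184 RPKM in NAC chronic, 109, 107 and 107 RPKM in vehicle chronic and 59.97, 64.2 and 65.1 RPKM in vehicle acute libraries, with no overlap. The log2 change was 0.79 in NAC chronic against vehicle chronic cells (SE 0.0416, adjusted p = 1.95e-12) and 0.76 in vehicle chronic against vehicle acute cells (SE 0.0416, adjusted p = 2.26e-12). In the other experiments restimulated cells had less NKG2D RNA. OT-I chronic libraries had 47.9, 48.7 and 45.3 RPKM and OT-I acute libraries 54.8, 54.5 and 50.6 RPKM. This log2 change of -0.17 (SE 0.0416, adjusted p = 0.00164) was -0.08 and not called with libraries rescaled to a common median (adjusted p = 0.153). Polyclonal chronic libraries had 9.32, 9.58 and 9.46 RPKM and polyclonal acute libraries 19.1, 19.6 and 19.1 RPKM (log2 change -0.96, SE 0.0416, adjusted p = 4.42e-14). As with Klrd1, every neighbour in the order of the 7 groups was separated, and the highest and lowest group means differed 19.7-fold. Over the 21 libraries Klrd1 and Klrk1 had a Pearson r of 0.89.

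Klrk1 and Klrc1 lie near each other in the NK complex and had opposite changes under NAC, so their upstream windows are shown together (RefSeq, GRCm38.p6, minus strand). They lie at chr6:129623865-129624114 for Klrk1 and chr6:129678974-129679223 for Klrc1. Capitals mark the RUNX motif TGTGGT or its reverse complement.
Klrk1: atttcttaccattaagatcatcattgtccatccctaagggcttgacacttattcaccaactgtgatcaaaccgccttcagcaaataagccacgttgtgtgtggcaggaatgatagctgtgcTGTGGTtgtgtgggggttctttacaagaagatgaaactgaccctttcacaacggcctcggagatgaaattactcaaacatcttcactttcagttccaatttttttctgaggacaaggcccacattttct
Klrc1: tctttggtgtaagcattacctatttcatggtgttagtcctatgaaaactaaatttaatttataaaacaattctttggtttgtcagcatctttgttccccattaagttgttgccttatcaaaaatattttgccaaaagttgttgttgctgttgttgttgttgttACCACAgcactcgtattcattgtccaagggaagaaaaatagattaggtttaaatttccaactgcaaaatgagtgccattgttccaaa
RUNX3 is a factor of CD8 T and NK cell differentiation. The match lay 129 bases before the start of Klrk1 and 87 bases before that of Klrc1, in opposite orientation. A match occurs in 14.0% of promoters of this length. The windows of Klrb1c, 89 bases before the start, and of Klrc2 held RUNX matches too, so the motif is not particular to this pair. The 2 windows were 59.2% identical over 218 aligned bases, and neither held the NFAT, T-box or AP-1 letters. Klrd1 and Klrg1 had no entry in the promoter table used.

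Klrb1c encodes NKR-P1C, an activating receptor known as NK1.1 that marks NK cells and some activated T cells of C57BL/6 mice. It had the largest difference between experiments of the 8 genes. Polyclonal chronic libraries had 0.705, 1.47 and 0.702 RPKM and polyclonal acute libraries 21.1, 21.8 and 21.1 RPKM (log2 change -3.53, SE 0.119, adjusted p = 7.42e-16). OT-I chronic libraries had 6.45, 5.74 and 6.27 RPKM and OT-I acute libraries 1.10, 1.33 and 1.97 RPKM (log2 change 1.55, SE 0.119, adjusted p = 1.07e-09). So restimulated cells had less Klrb1c RNA in the polyclonal experiment and more in the OT-I experiment. In the treatment experiment the levels were close: 7.37, 7.30 and 7.08 RPKM in NAC chronic, 10.4, 10.8 and 10.3 RPKM in vehicle chronic and 8.46, 8.61 and 8.96 RPKM in vehicle acute libraries. NAC chronic cells had less than vehicle chronic cells (log2 change -0.48, SE 0.119, adjusted p = 0.00166). The difference of vehicle chronic from vehicle acute cells was not called (log2 change 0.25, SE 0.119, adjusted p = 0.0812), although the libraries did not overlap. Fitted with the compared groups alone it was called (adjusted p = 0.00108), and likewise without the 3 libraries that stood apart (adjusted p = 0.000634). The same held for NAC chronic against vehicle acute cells (log2 change -0.23, adjusted p = 0.0959, but adjusted p = 0.0022 with the compared groups alone). Klrb1c shares 29.7% of its 50-base windows with other genes, and its coding sequence is 92.6% identical to that of Klrb1a.

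NK cell markers that are no members were read beside these values, as Klrb1c also marks NK cells. Ncr1, which encodes the NK receptor NKp46, was at 0.272 ± 0.180 RPKM in NAC chronic, 0.300 ± 0.0920 RPKM in vehicle chronic and 0.0290 ± 0.0253 RPKM in vehicle acute libraries (SD, n = 3 each), and was at 0 in at least 1 vehicle acute library. It was at 5.18 ± 0.875 RPKM in OT-I chronic and 0.893 ± 0.419 RPKM in OT-I acute libraries, and at 0.360 ± 0.530 RPKM in polyclonal chronic and 1.02 ± 1.14 RPKM in polyclonal acute libraries. Summed over the 7 of 9 NK markers with a row, levels were 74.2 to 81.8 RPKM in NAC chronic, 378 to 391 RPKM in vehicle chronic and 60.4 to 70.5 RPKM in vehicle acute libraries. Fcer1g alone made up 285 to 299 RPKM of the vehicle chronic sum. In OT-I cells the sum was 95.9 to 110 RPKM in chronic and 36.0 to 44.5 RPKM in acute libraries. In polyclonal cells it was 62.2 to 69.5 RPKM in chronic and 77.4 to 95.2 RPKM in acute libraries. The part of NK cells in the member values was not tested.

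Klrg1 encodes an inhibitory receptor for E-cadherin and its relatives that marks short-lived effector CD8 T cells. It was highest in vehicle chronic cells. It had 6.4, 7.8 and 6.59 RPKM in NAC chronic, 23.7, 24.3 and 22.6 RPKM in vehicle chronic and 2.14, 2.35 and 2.95 RPKM in vehicle acute libraries. The vehicle chronic mean was 9.49 times the vehicle acute mean (log2 change 2.82, SE 0.201, adjusted p = 1.58e-10), the widest ratio of the 8 genes in that comparison. NAC chronic cells were below vehicle chronic cells (log2 change -1.63, SE 0.201, adjusted p = 6.4e-07) and above vehicle acute cells (log2 change 1.19, SE 0.201, adjusted p = 2.68e-05). In the polyclonal experiment the direction was the opposite one, with 5.05, 6.75 and 6.02 RPKM in chronic and 13.1, 14.9 and 13.4 RPKM in acute libraries (log2 change -1.10, SE 0.201, adjusted p = 7.3e-05). OT-I chronic libraries had 1.88, 1.78 and 2.98 RPKM and OT-I acute libraries 0.274, 0.499 and 1.85 RPKM. OT-I acute library 3, one of those with raised low genes, overlapped the chronic libraries. The log2 change was 0.85 (SE 0.201, adjusted p = 0.00122), and 1.2 without that library, again called. With voom on recovered reads it was 1.97 (adjusted p = 0.000704).

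Vehicle-treated cells given repeated anti-CD3 had more RNA of nearly the whole set. Of the 8 genes 7 rose in vehicle chronic against vehicle acute cells and 0 fell, with Klrb1c not called. Over all genes tested 58.9% were called, 24.5% higher and 34.4% lower. The median log2 change of the 8 genes was 1.06, beside -0.03 over all genes tested. Klra7 (3.00) and Klrg1 (2.82) had the largest changes, and Klrd1 (0.65) had the smallest change of those called. Summed NK cell markers were 378 to 391 RPKM in vehicle chronic and 60.4 to 70.5 RPKM in vehicle acute libraries. Most of that difference was Fcer1g, at 290 and 17.0 RPKM. Of the 7 NK markers tested 5 were higher, 1 lower and 1 not called. Klre1 was at 48.4 RPKM in vehicle chronic and 40.4 RPKM in vehicle acute libraries, and Itga2 at 1.33 and 2.41 RPKM. CD8 T cell markers, CD3 genes included, summed to 1556 to 1579 RPKM in vehicle chronic and 1136 to 1188 RPKM in vehicle acute libraries. Among them Cd8a was at 145 RPKM in vehicle chronic and 87.1 RPKM in vehicle acute libraries. Cd8b1 went the other way, at 88.8 and 179 RPKM. The 3 of 5 myeloid markers with a row were at 16.5 to 19.0 RPKM in vehicle chronic and 8.68 to 11.97 RPKM in vehicle acute libraries. Cd4 was at 2.39 ± 0.236 RPKM in vehicle chronic and 13.9 ± 0.888 RPKM in vehicle acute libraries. The part of these markers in the member values was not tested.

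With NAC under the same restimulation, the set split by gene. Against vehicle chronic cells, Klrd1 and Klrk1 rose and the other 6 genes fell, so that all 8 were called, where 61.1% of all genes tested were called, 38.5% higher and 22.6% lower. The median log2 change was -0.71, beside 0.08 over all genes tested. With libraries rescaled to a common median, the split over all genes went to 3380 higher and 4114 lower, in place of 4862 higher and 2854 lower, a median shift of -0.16. All 8 members kept their direction and call under that scaling. B cell markers summed to 10.1 to 11.4 RPKM in NAC chronic and 3.18 to 4.50 RPKM in vehicle chronic libraries, and Cd4 was at 47.9 ± 1.12 RPKM in NAC chronic and 2.39 ± 0.236 RPKM in vehicle chronic libraries. CD8 T cell markers, CD3 genes included, summed to 1832 to 1888 RPKM in NAC chronic and 1556 to 1579 RPKM in vehicle chronic libraries. Cd8a was at 138 and 145 RPKM in these groups, and Cd8b1 at 184 and 88.8 RPKM. NK cell markers summed to 74.2 to 81.8 RPKM in NAC chronic and 378 to 391 RPKM in vehicle chronic libraries. Much of that was Fcer1g, at 40.8 and 290 RPKM. Myeloid markers summed to 26.1 to 28.8 RPKM in NAC chronic and 16.5 to 19.0 RPKM in vehicle chronic libraries. The part of these markers in the results was not tested.

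Against vehicle acute cells, NAC chronic cells had more Klra7, Klra3, Klrd1, Klrk1 and Klrg1 and less Klrc1. That made 6 of 8 genes called, 5 higher and 1 lower, where 66.3% of all genes tested were called, 36.3% higher and 29.9% lower. The median log2 change of the set was 0.98, beside 0.04 over all genes. Klrd1 (1.23, SE 0.0858, adjusted p = 1.05e-10) and Klrk1 (1.55, SE 0.0416, adjusted p = 2.55e-17) led. Rescaling changed the split over all genes to 3610 higher and 4802 lower, in place of 4587 higher and 3781 lower (median shift -0.14), and no member changed direction. Klrb1c was then also called as lower (log2 change -0.37, limma, adjusted p = 0.00558). CD8 T cell markers, CD3 genes included, summed to 1832 to 1888 RPKM in NAC chronic and 1136 to 1188 RPKM in vehicle acute libraries. Cd8a was at 138 and 87.1 RPKM in these groups, and Cd8b1 at 184 and 179 RPKM. Myeloid markers were at 26.1 to 28.8 RPKM in NAC chronic and 8.68 to 11.97 RPKM in vehicle acute libraries. Cd4 was at 47.9 ± 1.12 RPKM in NAC chronic and 13.9 ± 0.888 RPKM in vehicle acute libraries. NK cell markers summed to 74.2 to 81.8 RPKM in NAC chronic and 60.4 to 70.5 RPKM in vehicle acute libraries. Of 7 tested, 3 were higher and 2 lower. The part of these markers was not tested.

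OT-I cells given repeated peptide had more RNA of both Ly49 genes and 3 others and less CD94 and NKG2D RNA. Of the 8 genes 5 rose (Klra7, Klra3, Klrb1c, Klrc1 and Klrg1) and 2 fell (Klrd1 and Klrk1), with Klrc2 not called. Over all genes tested 58.6% were called, 22.4% higher and 36.2% lower. Rescaled libraries gave 3460 higher and 3518 lower in place of 2827 higher and 4568 lower, and there Klrk1 lost its call. The median log2 change was 0.68, beside -0.12 over all genes. Summed melanocyte markers were 3703 to 3779 RPKM in OT-I chronic and 6892 to 7177 RPKM in OT-I acute libraries, and B cell markers 37.1 to 40.5 RPKM in chronic and 4.84 to 10.7 RPKM in acute libraries. CD8 T cell markers, CD3 genes included, were at 720 to 744 RPKM in OT-I chronic and 873 to 1099 RPKM in OT-I acute libraries. Of these 5 markers 0 were higher and 4 lower, with a median log2 change of -0.42. Myeloid markers were at 21.2 to 23.7 RPKM in chronic and 6.97 to 9.08 RPKM in acute libraries. NK cell markers summed to 95.9 to 110 RPKM in OT-I chronic and 36.0 to 44.5 RPKM in OT-I acute libraries. Of 7 tested, 4 were higher and 1 lower. What part these had in the member values was not tested.

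In polyclonal cells, repeated anti-CD3 went with less RNA of most members. Of the 8 genes 5 fell (Klrb1c, Klrd1, Klrg1, Klrk1 and Klra3) and 1 rose (Klrc1), with Klra7 and Klrc2 not called. Over all genes tested 64.1% were called, 28.6% higher and 35.5% lower. The median log2 change was -0.73, beside -0.08 over all genes. CD4 T cell markers summed to 378 to 403 RPKM in polyclonal chronic and 99.5 to 108 RPKM in polyclonal acute libraries. Of 4 CD4 markers 3 were higher and 0 lower, and all 6 B cell markers were higher, against the direction of most members. Of 5 CD8 T cell markers, CD3 genes included, 0 were higher and 4 lower. NK cell markers summed to 62.2 to 69.5 RPKM in chronic and 77.4 to 95.2 RPKM in acute libraries. Of 7 tested, 3 were higher and 2 lower. The part of these markers in the member values was not tested.

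**Figure D3:**
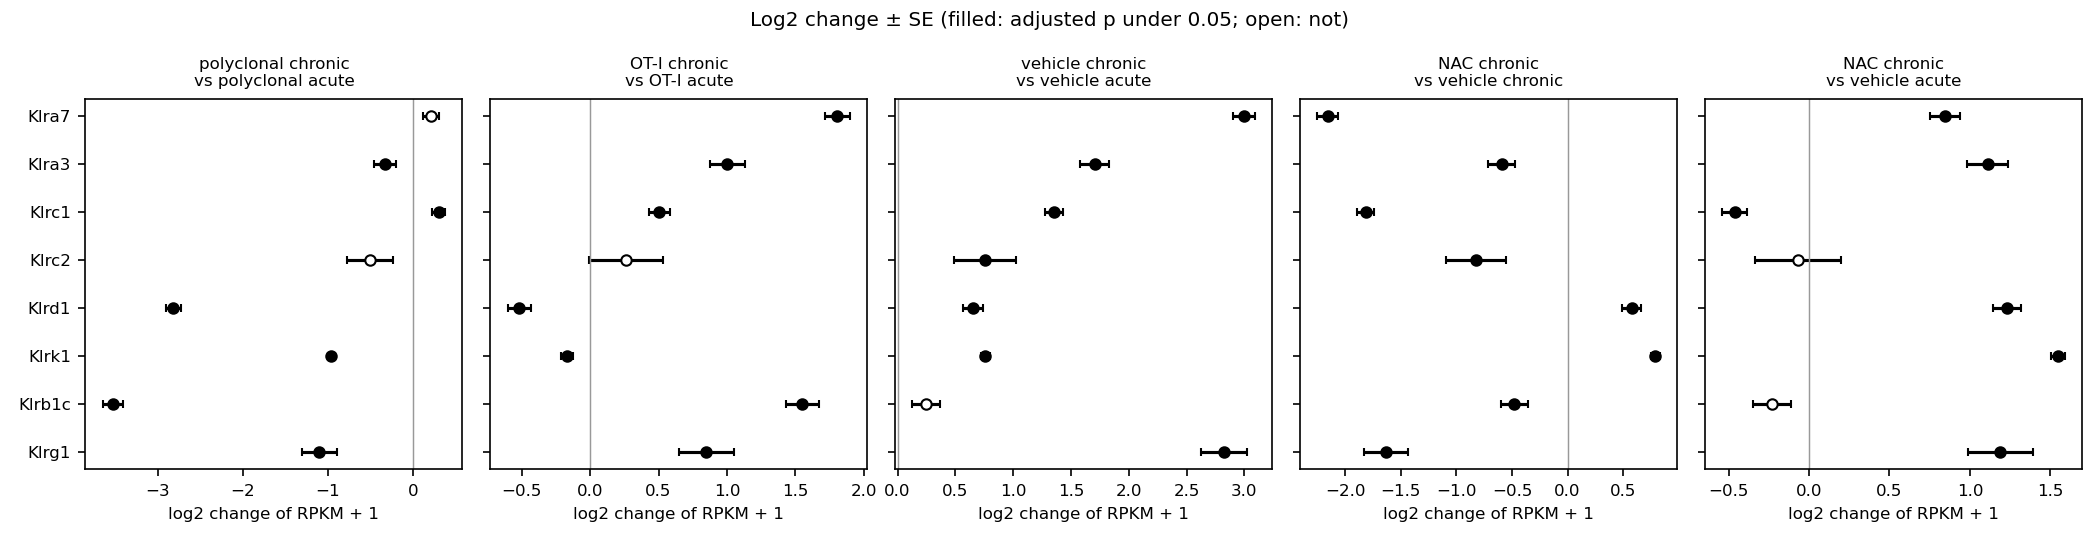
Log2 change of RPKM + 1 (x axis, its own scale in each panel) with SE for the 8 genes in the 5 comparisons of groups. Filled points passed adjusted p under 0.05 and open points did not. In vehicle chronic against vehicle acute cells every point lies to the right of 0, and in NAC chronic against vehicle chronic cells only Klrd1 and Klrk1 do.

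The chronic effects were then compared between experiments, by testing the difference of the log2 changes in the same fit. The vehicle experiment had the higher effect on every member when set against the polyclonal experiment. The polyclonal chronic libraries go against their CD8 label, with Cd8a at 8.48 RPKM beside 145 RPKM in vehicle chronic libraries, and B cell markers at 203 to 225 RPKM beside 3.18 to 4.50 RPKM. Each of the 8 differences rests on these libraries, and the part of the markers was not tested. All 8 differences were called as higher, where 52.4% of all genes tested were called, 25.1% higher and 27.3% lower. They were largest for Klrg1 (3.92, SE 0.284, adjusted p = 4.01e-10), Klrb1c (3.78, SE 0.168, adjusted p = 1.84e-13) and Klrd1 (3.47, SE 0.121, adjusted p = 3.99e-15). The smallest was that of Klrc1 (1.05, SE 0.11, adjusted p = 9.57e-08).

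The OT-I effect was above the polyclonal effect for 6 of the 8 genes and below it for 0, where 55.8% of all genes tested were called, 26.6% higher and 29.2% lower. Klrb1c had the largest difference (5.08, SE 0.168, adjusted p = 2.34e-15), from a lower level in polyclonal chronic and a higher level in OT-I chronic cells. The difference for Klra3 (1.33) was 2.22 with a pseudocount of 0.1 and 2.57 with voom, and that for Klrg1 (1.95) was 3.18 with voom, all called. The differences for Klrc1 (0.20, SE 0.11, adjusted p = 0.13) and Klrc2 (0.76, SE 0.38, adjusted p = 0.0962) did not pass. Without polyclonal acute library 1 both did (Klrc1 0.30, adjusted p = 0.0171, and Klrc2 0.97, adjusted p = 0.0430). Klrc1 also passed without OT-I acute library 1 (0.28, adjusted p = 0.0325), and Klrc2 without polyclonal chronic library 2 (1.07, adjusted p = 0.0147) or without the 3 libraries that stood apart (1.04, adjusted p = 0.0270).

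Set against the vehicle effect, the OT-I effect was lower for 6 genes and higher for Klrb1c alone (1.30, SE 0.168, adjusted p = 1.45e-06), with Klrc2 not called (-0.50, adjusted p = 0.275). Over all genes tested 58.5% were called, 27.4% higher and 31.1% lower. Klrg1 had the largest difference (-1.98, SE 0.284, adjusted p = 5.67e-06), followed by Klra7 (-1.19, SE 0.132, adjusted p = 1.78e-07) and Klrd1 (-1.17, SE 0.121, adjusted p = 7.03e-08). With voom the difference for Klrg1 was -1.27 (adjusted p = 0.0355). The difference for Klra3 (-0.70, SE 0.178, adjusted p = 0.00205) rested on the pseudocount. It was -0.15 with a pseudocount of 0.1 (adjusted p = 0.667) and 0.01 with voom (adjusted p = 0.985). Each pair of these 3 tests shares an experiment, so their results are not independent.

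**Figure D4:**
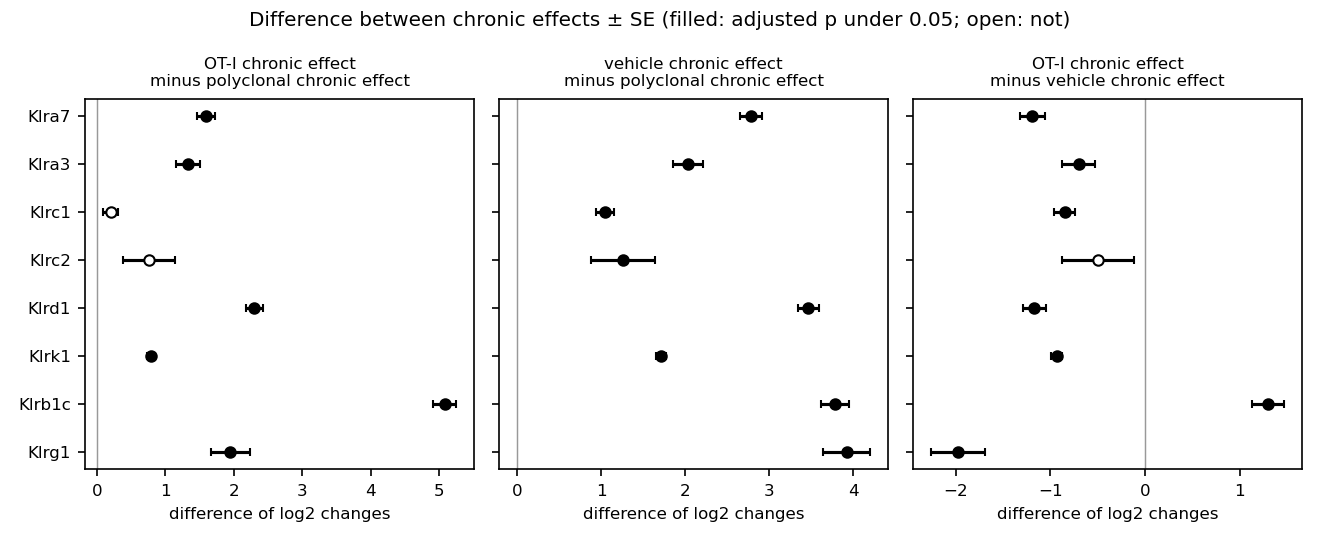
Difference between the chronic against acute log2 changes of 2 experiments (x axis, its own scale in each panel) with SE, for the 8 genes. Filled points passed adjusted p under 0.05 and open points did not. For vehicle minus polyclonal all 8 points lie to the right of 0, and Klrb1c alone has a higher OT-I than vehicle effect.

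Activating receptors signal through adaptors, and these were read beside the members. The 3 adaptor genes shown were picked for their known partners, with their values already seen. Hcst encodes DAP10, an adaptor of NKG2D. It was at 96.3 ± 4.80 RPKM in NAC chronic, 84.0 ± 2.35 RPKM in vehicle chronic and 86.6 ± 5.88 RPKM in vehicle acute libraries (SD, n = 3 each), and its change was not called between NAC chronic and vehicle chronic cells (log2 change 0.19, adjusted p = 0.0648) or between vehicle chronic and vehicle acute cells (-0.04, adjusted p = 0.744). So Klrk1 RNA changed in these comparisons, and the change of Hcst was not called. In OT-I cells Hcst fell with Klrk1, to 27.2 ± 1.75 RPKM in chronic libraries, against 49.0 ± 9.23 RPKM in acute libraries (log2 change -0.81, adjusted p = 1.74e-07). In polyclonal cells it fell to 29.1 ± 2.25 RPKM in chronic libraries, against 96.6 ± 1.39 RPKM in acute libraries (log2 change -1.70, adjusted p = 8.83e-13).

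Tyrobp encodes DAP12, the adaptor of CD94 with NKG2C, and Fcer1g the Fc receptor γ chain, the adaptor of NKR-P1C. Both were high in vehicle chronic cells. Tyrobp was at 7.71 ± 1.51 RPKM in NAC chronic, 34.7 ± 3.19 RPKM in vehicle chronic and 2.56 ± 0.604 RPKM in vehicle acute libraries. Fcer1g was at 40.8 ± 1.51 RPKM in NAC chronic, 290 ± 7.54 RPKM in vehicle chronic and 17.0 ± 2.34 RPKM in vehicle acute libraries. The log2 change of Fcer1g was 4.02 in vehicle chronic against vehicle acute cells (SE 0.0981, adjusted p = 5.36e-18) and -2.80 in NAC chronic against vehicle chronic cells (SE 0.0981, adjusted p = 3.5e-15). In OT-I cells both adaptor genes rose, Tyrobp by a log2 change of 1.95 (adjusted p = 1.75e-08) and Fcer1g by 1.16 (adjusted p = 4.63e-09). In polyclonal cells Tyrobp rose (0.84, adjusted p = 0.000413) and Fcer1g fell (-0.42, adjusted p = 0.000901). Among all 18 adaptor and signalling genes listed, 7 rose and 6 fell in vehicle chronic against vehicle acute cells, 6 rose and 5 fell in NAC chronic against vehicle chronic cells, 7 rose and 4 fell in OT-I cells, and 5 rose and 12 fell in polyclonal cells. The shares over all genes tested, higher and lower, were 24.5% and 34.4% in the vehicle, 38.5% and 22.6% in the NAC chronic against vehicle chronic, 22.4% and 36.2% in the OT-I and 28.6% and 35.5% in the polyclonal comparison.

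The wider family of NK receptor genes was counted from a list of 31 genes that leaves out the members, of which 22 had a row and were tested. In vehicle chronic against vehicle acute cells 14 rose and 4 fell, with a median log2 change of 1.08, where 24.5% of all genes tested were higher and 34.4% lower. In NAC chronic against vehicle chronic cells 4 rose and 15 fell (median -0.60), beside 38.5% higher and 22.6% lower over all genes. In NAC chronic against vehicle acute cells 8 rose and 8 fell, beside 36.3% higher and 29.9% lower. OT-I cells had 8 higher and 5 lower, beside 22.4% and 36.2%, and polyclonal cells 4 higher and 11 lower (median -0.47), beside 28.6% and 35.5%. Tigit, which encodes an inhibitory receptor for nectin-family ligands, was at 195 ± 4.82 RPKM in NAC chronic, 222 ± 8.70 RPKM in vehicle chronic and 21.9 ± 3.66 RPKM in vehicle acute libraries. Slamf6, a self-binding SLAM family receptor gene, was at 11.9 ± 0.272 RPKM in NAC chronic, 0.433 ± 0.0752 RPKM in vehicle chronic and 17.3 ± 1.79 RPKM in vehicle acute libraries. These 2 genes had the largest changes of the list in vehicle chronic against vehicle acute cells (Slamf6 log2 change -3.67, adjusted p = 4.59e-17, and Tigit 3.30, adjusted p = 4.2e-18). In polyclonal cells the largest changes were in Cd160, at 0.772 ± 0.143 RPKM in chronic and 25.1 ± 1.55 RPKM in acute libraries (log2 change -3.88, adjusted p = 1.31e-19), and Cd226, the activating receptor DNAM-1, at 2.66 ± 0.924 RPKM in chronic and 41.6 ± 2.37 RPKM in acute libraries (log2 change -3.57, adjusted p = 1.97e-16). In OT-I cells Ncr1 led (log2 change 1.72, adjusted p = 4.44e-05), followed by Klre1, a Klr receptor gene, at 12.2 ± 1.26 RPKM in chronic and 3.57 ± 0.309 RPKM in acute libraries (log2 change 1.53, adjusted p = 1.82e-11).

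**Figure D5:**
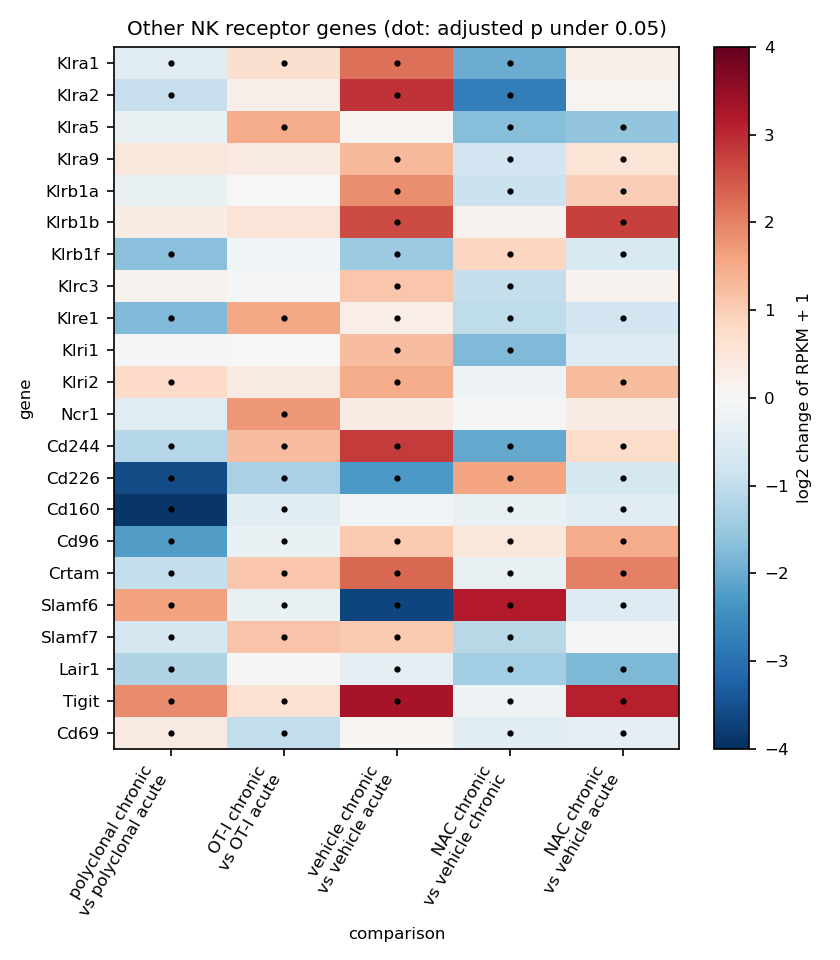
Log2 change of RPKM + 1 (colour, from -4 to 4) of 22 other NK receptor genes (rows) in the 5 comparisons of groups (columns). A dot marks adjusted p under 0.05. Slamf6 and Cd226 are lower in vehicle chronic than in vehicle acute cells and higher in NAC chronic than in vehicle chronic cells, opposite to Tigit and Klra2 in the first of these comparisons.

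Ligands of these receptors were measured in the same cultures. Of 19 listed, 10 had a row, and in vehicle chronic against vehicle acute cells 2 rose and 6 fell, where 24.5% of all genes were higher and 34.4% lower. In NAC chronic against vehicle chronic cells 5 rose and 2 fell, where 38.5% were higher and 22.6% lower. H2-T23, which encodes the heavy chain of Qa-1, the ligand of CD94 with NKG2A, was at 234 ± 39.5 RPKM in NAC chronic, 205 ± 38.9 RPKM in vehicle chronic and 83.6 ± 10.3 RPKM in vehicle acute libraries. Both differences from vehicle acute cells were called (log2 change 1.46, adjusted p = 1.02e-08, with NAC and 1.27, adjusted p = 9.64e-08, with vehicle), and that between NAC chronic and vehicle chronic cells was not (0.19, adjusted p = 0.254). Thus Klrc1 was lower under NAC while the change of the ligand gene was not called. Ulbp1, the gene of the NKG2D ligand MULT1, was at 17.7 RPKM in OT-I chronic and 8.15 RPKM in OT-I acute libraries (log2 change 1.04, adjusted p = 7.37e-08). These libraries also held melanoma RNA, with summed melanocyte markers at 3703 to 3779 RPKM in chronic and 6892 to 7177 RPKM in acute libraries. Which cells the Ulbp1 RNA came from was not tested. In the treatment experiment Ulbp1 was at 19.9 RPKM in NAC chronic, 26.4 RPKM in vehicle chronic and 33.5 RPKM in vehicle acute libraries, the reverse of the order of Klrk1, with a log2 change of -0.73 in NAC chronic against vehicle acute cells (adjusted p = 5.29e-06). It was at 16.7 RPKM in polyclonal chronic and 43.8 RPKM in polyclonal acute libraries (log2 change -1.34, adjusted p = 8.49e-10).

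Transcription factors that act on NK receptor genes or on NK-like programmes were listed too, and 17 of 18 were tested. In vehicle chronic against vehicle acute cells 11 rose and 4 fell, and in NAC chronic against vehicle chronic cells 9 rose and 6 fell. OT-I cells had 6 higher and 7 lower, and polyclonal cells 7 higher and 7 lower. Of all genes tested 58.9%, 61.1%, 58.6% and 64.1% were called in these 4 comparisons, in that order. The shares higher and lower were 24.5% and 34.4% in the vehicle and 38.5% and 22.6% in the NAC comparison. They were 22.4% and 36.2% in the OT-I and 28.6% and 35.5% in the polyclonal comparison. Eomes encodes a T-box factor of memory CD8 T and NK cells. It was at 207 ± 2.66 RPKM in NAC chronic, 85.0 ± 0.657 RPKM in vehicle chronic and 91.5 ± 2.27 RPKM in vehicle acute libraries. Eomes thus was highest in NAC chronic cells, as Klrd1 and Klrk1 were (log2 change 1.28 against vehicle chronic cells, adjusted p = 6.34e-16). In polyclonal cells it fell to 7.76 ± 0.430 RPKM in chronic libraries, against 120 ± 2.75 RPKM in acute libraries (log2 change -3.79, adjusted p = 1.78e-23). In OT-I cells it rose to 33.9 ± 0.863 RPKM in chronic libraries, against 10.2 ± 0.299 RPKM in acute libraries (log2 change 1.64, adjusted p = 2.34e-17), while Klrd1 and Klrk1 fell. Tcf7, the gene of the memory-associated factor TCF-1, was at 116 RPKM in NAC chronic, 3.5 RPKM in vehicle chronic and 176 RPKM in vehicle acute libraries (log2 change 4.70 in NAC chronic against vehicle chronic cells, adjusted p = 1.36e-20).

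Of 17 listed cytokine receptor and effector genes 16 were tested, and 12 rose and 2 fell in vehicle chronic against vehicle acute cells. In NAC chronic against vehicle chronic cells 4 rose and 10 fell, in OT-I cells 10 rose and 2 fell, and in polyclonal cells 7 rose and 7 fell. Over all genes tested, the shares higher and lower were 24.5% and 34.4% in the vehicle, 38.5% and 22.6% in the NAC, 22.4% and 36.2% in the OT-I and 28.6% and 35.5% in the polyclonal comparison. Prf1, which encodes perforin, was at 171 RPKM in NAC chronic, 1391 RPKM in vehicle chronic and 69.0 RPKM in vehicle acute libraries. Il18r1, an interleukin 18 receptor gene, was at 62.4 RPKM in NAC chronic, 5.17 RPKM in vehicle chronic and 73.3 RPKM in vehicle acute libraries. These levels of Prf1 and Il18r1 ran in opposite order to each other in the 3 groups.

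Finally, the genes with the level pattern most like each member were read over the 21 libraries, by Pearson r of log2(RPKM + 1). These are descriptions across libraries that share groups, with no test. Klra7 was most like Il2rb (0.979), the gene of the IL-2 and IL-15 receptor β chain, then Tbx21 (0.959), the gene of the T-box factor T-bet, and Myl6 (0.953). Il2rb was at 615 ± 7.04 RPKM in NAC chronic, 1102 ± 5.92 RPKM in vehicle chronic and 482 ± 23.4 RPKM in vehicle acute libraries. Tbx21 was at 36.6 ± 0.321 RPKM in NAC chronic, 73.5 ± 2.56 RPKM in vehicle chronic and 33.7 ± 1.29 RPKM in vehicle acute libraries. Both thus had their highest level in vehicle chronic cells, as Klra7 did. Klra3 was most like Crtam (0.978), Hacd3 and Gatad2a, and Klrc1 like Lgals3 (0.964), Smpd4 and Prdx5. For Klrc2 the genes were Styk1 (0.904), a and Fmnl1, for Klrd1 Abcb9 (0.975), Plxdc2 and Dvl2, and for Klrk1 Prdx6 (0.943), Max and Fbxo31. For Klrb1c they were Slc4a1ap (0.951), Arsb and Mapk14, and for Klrg1 Marveld2 (0.941), Tln1 and Stk32c. Among pairs of members, r ran from 0.90 between Klra7 and Klra3 to 0.04 between Klrk1 and Klrg1.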

How the data were processed

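RNA from 21 libraries (7 groups, n = 3 each) was sequenced after poly-A selection. The authors deposited 1 table of RPKM values, with 1 column per library and no pooling. Per the submitters' processing notes, bcl2fastq 2.17, HTSeq, edgeR and the mm9 build were used. The aligner, annotation, filter, strand, read length and treatment of reads from near-identical copies are not stated, and the last could move values between copies.

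The RPKM values were whole multiples of 1 read per gene. Reads came out whole, within 0.001 reads, for 100% of 13202 genes, and gave the depths of 5347355 to 25218890 reads. All tests used log2(RPKM + 1) for the 12630 genes that reached an RPKM of 1 in 3 or more libraries. One limma fit (limma 3.58.1, R 4.3.3, eBayes with trend, 14 residual degrees of freedom) held a mean per group. Tests were two-sided, with Benjamini-Hochberg adjustment over all genes tested and a threshold of 0.05. Tables and figures used Python 3.11.15 with pandas 2.3.3, numpy 2.4.6 and matplotlib 3.10.9. The fit was tested on simulated data.

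The members and gene lists were chosen with earlier results of these data known. Named beside the members are, per list and comparison, up to 3 called genes with the largest log2 changes, some markers of other cell types, and the 3 genes most like each member. Other genes, levels and comparisons shown for context (Hcst and H2-T23 among them) were chosen with their values seen. For the innate-like and γδ T cell markers, 1 of 5 had a row and 0 were tested, and of 5 myeloid markers 3 were tested (2 higher and 0 lower in vehicle chronic against vehicle acute cells).

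The pairing of equal replicate numbers was checked by the correlation of their deviations from the group means. For polyclonal libraries it was 0.446, 0.629 and 0.168, which hints at a pairing that the labels do not state. The equal number gave the highest correlation for polyclonal chronic libraries 1 and 2 but not for library 3. Both polyclonal libraries numbered 2 also stood apart by raised low genes. The main fit used no pairing in any experiment, and the replicate block was only an alternative. In the other comparisons it ran from -0.167 to 0.0790, and the libraries were taken to share a number only. Even so, each vehicle chronic and each NAC chronic library correlated best with the vehicle acute library of its number. Between NAC chronic and vehicle chronic libraries this held for NAC chronic library 3 only. Alternatives were another pseudocount (0.1), no filter, a stricter filter (RPKM of 5), rescaled libraries, the compared groups alone, a replicate block, voom on recovered reads and each library left out. Leaving out the 3 libraries that stood apart was added after seeing the data.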

Additional observations from a re-analysis of the deposited data

Results flagged for a closer look

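For 21 of 24 tests, the effect of restimulation on a member differed between a pair of experiments, by limma's test of the difference itself. Of all genes tested 55.8% were called for OT-I minus polyclonal, 52.4% for vehicle minus polyclonal and 58.5% for OT-I minus vehicle effects. The values are differences of log2 changes of RPKM + 1. OT-I effects exceeded polyclonal effects by 1.60 for Klra7, 1.33 for Klra3, 5.08 for Klrb1c, 2.30 for Klrd1, 0.79 for Klrk1 and 1.95 for Klrg1. Vehicle effects exceeded polyclonal effects by 2.79 for Klra7, 2.03 for Klra3, 3.78 for Klrb1c, 1.05 for Klrc1, 1.26 for Klrc2, 3.47 for Klrd1, 1.72 for Klrk1 and 3.92 for Klrg1. OT-I minus vehicle effects were -1.19 for Klra7, -0.70 for Klra3, 1.30 for Klrb1c, -0.85 for Klrc1, -1.17 for Klrd1, -0.93 for Klrk1 and -1.98 for Klrg1.

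The direction itself changed between experiments for 5 genes. Klrd1 and Klrk1 fell with restimulation in polyclonal and OT-I cells and rose in vehicle-treated cells. Klrb1c fell in polyclonal and rose in OT-I cells, and Klrg1 and Klra3 fell in polyclonal cells and rose in both others, although the polyclonal call of Klra3 was lost under 5 alternatives. The OT-I experiment differs from both others in strain, in stimulus and in the melanoma cells, whose RNA its libraries held. The polyclonal and vehicle experiments share strain and stimulus. A vehicle is named for the vehicle experiment only. The polyclonal chronic libraries also differ from the vehicle chronic libraries in their CD8, CD4 and B cell markers. Within a pair of experiments such differences cannot be told apart, and their part in the changes of direction was not tested.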

How the results depend on the processing

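Over 29 alternatives, 2268 of 2320 log2 changes of members and summed copies kept their direction and their side of the threshold. Many of these fits could not change a direction. The log2 change stays as it was without a library of a group not compared. It also stays with a replicate block, another filter or the compared groups alone, which can change only the call. Of the others 15 lost and 30 gained a call, and 7 changed sign. All 261 counts stayed within 1.5 times, which says little, as a count of members called cannot exceed 8. With each library left out or another setting used, the members called were 5 to 7 for polyclonal, 6 to 7 for OT-I, 6 to 8 for vehicle, 7 to 8 for NAC chronic against vehicle chronic and 6 to 7 for NAC chronic against vehicle acute cells. Over all genes, 6874 to 8661, 6643 to 8468, 6792 to 8502, 6925 to 8733 and 7459 to 9217 were called, in that order. In the main fit 12630 genes were tested.

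The changes of sign were in values that were not called, apart from Klra3. The polyclonal change of the Klra sum (-0.01) was 0.0295 with rescaled libraries, 0.0656 without polyclonal acute library 2, and 0.05 without polyclonal chronic library 1 or library 3, with a range of -0.12 to 0.0656 over the libraries left out. The Klra3 difference between OT-I and vehicle effects (-0.70) was 0.0104 with voom. The Klrc2 change between NAC chronic and vehicle acute cells (-0.07) was 0.11 without vehicle acute library 3 and 0.05 without NAC chronic library 2, with a range of -0.30 to 0.11. The cause was not tested.

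With the replicate block the members called were 6, 7, 7, 8 and 6 in the 5 comparisons of groups, as without it. Of 12630 genes tested, 8661, 7947, 7745, 8006 and 8656 were called with the block, in the same order. Among members and summed copies the block added 1 call, the difference of the Klrc sum between OT-I and polyclonal effects (0.26, limma, adjusted p = 0.0443). It changed no other of these calls. Depth limits Klra3, Klrc2 and Klrg1 most, with as few as 11, 15 and 9 reads in a library.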
